A study of Mus musculus with 6 samples.

Results

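The kinesin motor family was examined in bone marrow-derived mesenchymal stromal cells (MSCs) as the genes whose symbol begins with Kif and a number. This rule took 38 of the 23420 genes in the count table, and 30 of these had 10 or more reads in at least 3 libraries and are described in full. The 30 comprised 11 of 12 mitotic kinesins, 11 of 13 transport kinesins, 4 of 6 ciliary or centriolar kinesins and 4 of 7 others. MSCs were grown from the femurs of female C57BL/6 mice aged 6 to 8 weeks and transduced at passage 5 with an AP2 retrovirus that carries eGFP. The 3 libraries labelled MSC-TPr came from cells given the construct for the thymoproteasome (TPr) subunits β1i, β2i and β5t, encoded by Psmb9, Psmb10 and Psmb11, and the 3 libraries labelled Ctl MSC from cells given the empty construct, so the virus and eGFP are shared by the groups. Polyadenylated RNA was sequenced to find which genes differ between these groups. The labels do not say whether the 3 libraries of a group are separate cultures, so p-values measure only the spread between these libraries, which may be technical.

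Kinesins are motor proteins that hydrolyse ATP to move along microtubules, most of them toward the plus end. Mitotic kinesins push spindle poles apart, align chromosomes and organise the central spindle and the cut between daughter cells, and they are made mainly by dividing cells, from G2 phase to mitosis. Transport kinesins carry vesicles, mitochondria and endosomes through the cytoplasm of resting and dividing cells alike, often bound to cargo through light chains or adaptors. Other members work in cilia or centrioles, or govern the length of microtubules. MSCs in culture are adherent, proliferating cells of the connective tissue lineage, and carry a single non-motile cilium rather than the motile cilia of airway or ependymal cells.

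Between 16158756 and 22158887 reads per library fell on genes, so that 3 reads, the smallest amount taken as detectable, were 0.139 to 0.181 CPM (counts scaled to library size with TMM factors). This limit covers counting error only. The transduced genes did not follow the labels. Psmb11 had 1 to 6 reads per library, and neither Psmb9 nor Psmb10 had all MSC-TPr libraries above all Ctl MSC libraries, so each direction given here is one between library labels. The paper checked transduction by eGFP and by immunoblot of the subunits, and reports enhanced expression of Psmb10. Here the log2 fold change of Psmb10 was −0.11 over the 6 libraries and 0.92 over those numbered 2 and 3. The first principal component, with 58.5% of the variance, put Ctl MSC 1 beside MSC-TPr 2 and 3, and MSC-TPr 1 beside Ctl MSC 2 and 3. The second, with 28.3%, did follow the labels. On it Ctl MSC 1 to 3 lay at −48.9, −20.4 and −19.6, and MSC-TPr 1 to 3 at 49.1, 24.2 and 15.6. The order of the first component was also seen in 25 genes of cell division, among them Mki67, Top2a and Cdk1. The mean log2 CPM of the 25 was 6.53, 3.73 and 3.70 in Ctl MSC 1 to 3 and 3.66, 6.56 and 6.53 in MSC-TPr 1 to 3. Results are therefore given over the 6 libraries, over the libraries numbered 2 and 3 in each group, and with this cell division level as a covariate. Within each label no library was a copy of another, as the most alike of these pairs, Ctl MSC 2 and 3, had a chi-square per gene of 4.76. Pairs across the labels were not compared in this way. Of 10 mesenchymal stromal markers, Col1a1, Col1a2 and Cd44 were abundant in every library, whereas Thy1, which encodes CD90, reached at most 0.0604 CPM, and Nt5e, which encodes CD73, was lower in every MSC-TPr library. At the protein level, the paper reports CD73 and CD90 on Ctl MSCs by flow cytometry. It also gives a phenotypic analysis of MSC-TPr, and states that their mesenchymal phenotype was not altered. Summed, the 10 markers had 8160, 3160 and 3150 CPM in Ctl MSC 1 to 3 and 2150, 7070 and 14000 CPM in MSC-TPr 1 to 3. In this sum too, Ctl MSC 1 lay above its group and MSC-TPr 1 below.

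Kif5c was the one kinesin that edgeR called between the labels over the 6 libraries. It encodes a heavy chain of kinesin-1, the motor that carries mitochondria and many vesicles, and is known mainly from neurons. Kif5c lies on the plus strand of chromosome 2 of mm10 from 49619298 to 49774778. It measured 7.25, 6.25 and 5.63 CPM in Ctl MSC 1 to 3, from 102 to 120 reads, and 24.5, 20.8 and 32.7 CPM in MSC-TPr 1 to 3, from 352 to 706 reads. Every MSC-TPr library lay above every Ctl MSC library, also between the libraries numbered 1, and the spread within each group was small beside the gap. The means were 6.38 ± 0.819 CPM and 26.0 ± 6.10 CPM (SD, n = 3 each), and the log2 fold change was 2.03 ± 0.245 (SE, adjusted p = 0.035 by edgeR's quasi-likelihood test with Benjamini-Hochberg adjustment). Of 11974 genes tested, 51 (0.426%) were called in either direction, by an adjusted p under 0.05 together with a log2 fold change no smaller than 0.5 in size, and 3 (0.0251%) were called higher, which were Kif5c, Pdgfd and Tgm2. All MSC-TPr libraries lay above all Ctl MSC libraries in 1269 genes (10.6%) and below them in 1443 (12.1%). Among the 30 kinesins this was the case for Kif5c above and Kif9 below.

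The fold change of Kif5c hardly moved with the libraries used, but its call did. The libraries numbered 2 and 3 alone gave 2.18 ± 0.252 (SE, adjusted p = 0.00156 by edgeR) and the cell division covariate 1.97 ± 0.211 (SE, adjusted p = 0.00167 by edgeR). DESeq2 gave 2.04 (adjusted p = 1.82e-10). Leaving out 1 library at a time gave 1.84 to 2.17, and kept the call only without Ctl MSC 1 (edgeR adjusted p = 0.0388), while the other 5 fits gave an edgeR adjusted p of 0.0617 to 0.18.

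The 3 kinesin-1 heavy chains were set against each other per length, as RPKM, the CPM divided by the exon length in kilobases. Kif5b, the form that most cell types use, measured 49.4, 62.4 and 63.5 RPKM in Ctl MSC 1 to 3 and 57.2, 59.7 and 58.4 RPKM in MSC-TPr 1 to 3. It was the most abundant of the 30 kinesins per length, and its log2 fold change was 0.00 ± 0.162 (SE, adjusted p = 1.0 by edgeR). Kif5c measured 1.02, 0.875 and 0.788 RPKM against 3.43, 2.92 and 4.59 RPKM, which placed it 20th of the 30 by mean level. Kif5a, the third heavy chain and likewise known from neurons, stayed at 0.0995 to 0.367 RPKM, with 15 to 48 reads per library. The level of Kif5b was therefore 48.7 to 80.6 times that of Kif5c in the Ctl MSC libraries and 12.7 to 20.5 times in the MSC-TPr libraries, without overlap. Summed over 8 neuronal markers, the libraries had 30.1, 10.3 and 10.4 CPM in Ctl MSC 1 to 3 and 5.54, 12.4 and 13.1 CPM in MSC-TPr 1 to 3, so this sum was not higher with Kif5c, and 2 of the 8 were at 0 in every library. In bulk RNA, fewer cells that make a transcript and less of it per cell cannot be told apart.

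**Figure D1:**
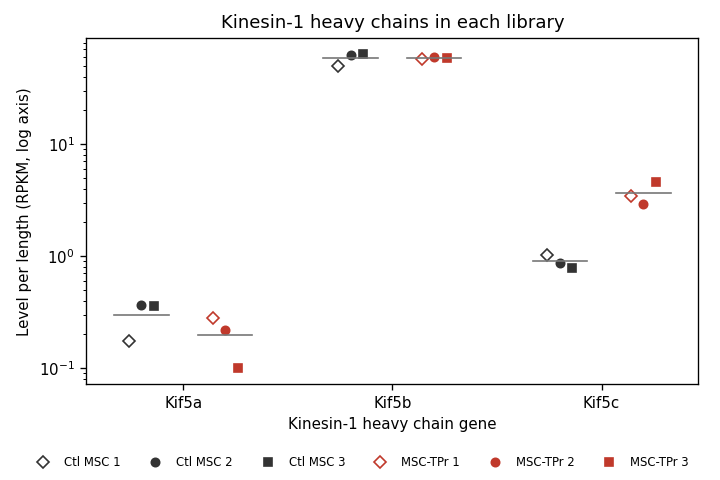
Level per length of the kinesin-1 heavy chains Kif5a, Kif5b and Kif5c in each library (RPKM, log axis). Points are single libraries, black for Ctl MSC and red for MSC-TPr, and lines are the means of 3 libraries. Kif5c was 0.788 to 1.02 RPKM in Ctl MSC and 2.92 to 4.59 RPKM in MSC-TPr, beside 49.4 to 63.5 RPKM of Kif5b.

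The genes around Kif5c were examined as well, in a window chosen after its values were seen. Within 1 Mb, 5 other genes were tested, and all had a log2 fold change above 0, from 0.36 for Acvr2a to 0.92 for Orc4, with a median of 0.47. Orc4, Epc2 and Mmadhc, 3 of the 5, lay above in every MSC-TPr library, beside 10.6% of all genes tested. None of the 5 was called over the 6 libraries, with a lowest edgeR adjusted p of 0.179. The window of 300 bases around the annotated start of Kif5c, from 250 bases before it to 50 after, is shown because Kif5c is the kinesin called over the 6 libraries. It is chr2:49619036-49619335 (plus strand, mm10, from RefSeq), and is written 5′ to 3′ in lower case, as it holds neither of the motifs described below for the mitotic kinesins.
Kif5c: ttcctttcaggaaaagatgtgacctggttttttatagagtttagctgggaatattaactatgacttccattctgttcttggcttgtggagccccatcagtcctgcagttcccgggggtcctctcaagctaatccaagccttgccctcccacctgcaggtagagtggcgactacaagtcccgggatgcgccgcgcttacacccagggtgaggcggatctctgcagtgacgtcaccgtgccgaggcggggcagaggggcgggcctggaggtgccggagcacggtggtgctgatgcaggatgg

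The 11 mitotic kinesins that were kept varied together, and their order did not follow the labels. In each of the 11, Ctl MSC 1 lay above Ctl MSC 2 and 3, and MSC-TPr 1 lay below MSC-TPr 2 and 3. Of all genes tested, 32.0% had this order. Ctl MSC 1 had 6.24 times (Kif14) to 21.0 times (Kif15) the mean of Ctl MSC 2 and 3, with a median of 9.0, and the mean of MSC-TPr 2 and 3 was 4.29 times (Kif22) to 22.3 times (Kif15) MSC-TPr 1, with a median of 7.97. Summed, the 11 genes measured 590, 56.9 and 55.9 CPM in Ctl MSC 1 to 3 and 63.3, 526 and 553 CPM in MSC-TPr 1 to 3. This was also the order of the cell division genes given above, of which none is a kinesin, and its cause was not tested. Kif2b, a relative of Kif2c, had 1 read in 1 library and was the mitotic kinesin not kept.

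**Figure D2:**
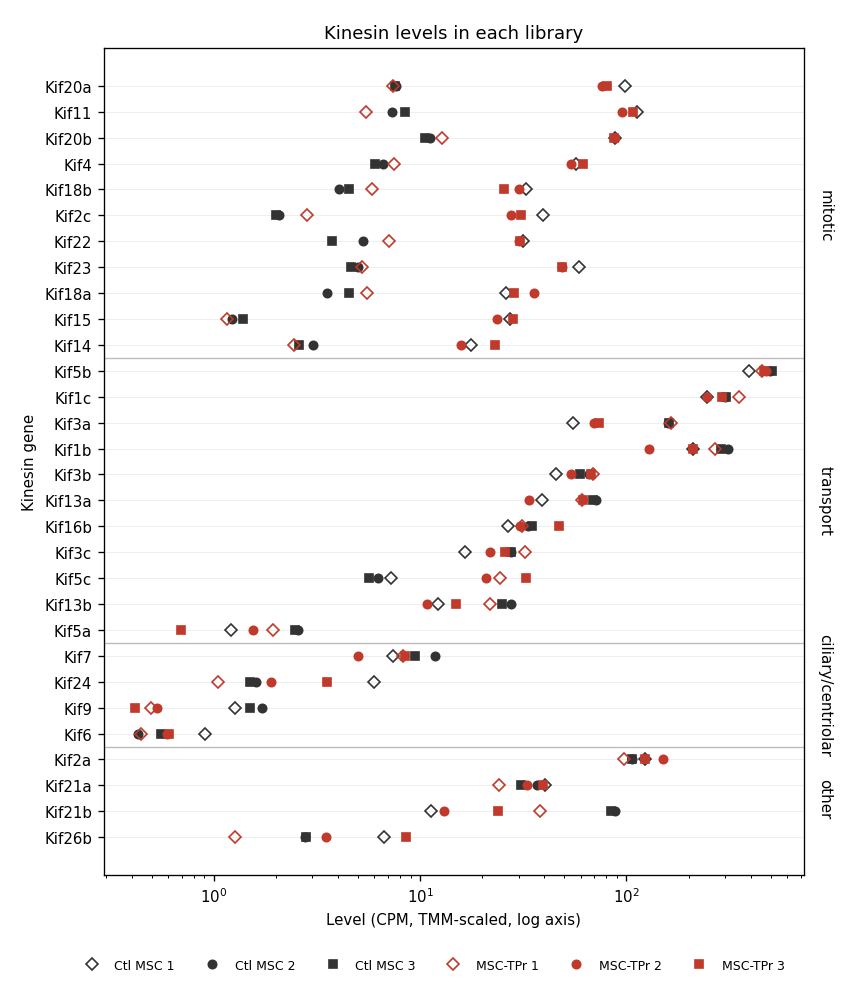
Level of the 30 kinesins in each library (CPM, log axis), grouped by class and ordered by mean level per length within each class. Black marks are Ctl MSC and red marks MSC-TPr, with the libraries numbered 1 as open diamonds. In the 11 mitotic kinesins Ctl MSC 1 lies with MSC-TPr 2 and 3, and MSC-TPr 1 with Ctl MSC 2 and 3, whereas Kif5c and Kif9 separate by label. Kif9 was kept only through its Ctl MSC libraries, which favoured its direction.

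Over the 6 libraries, none of the 11 was called by edgeR, and 0 had an unadjusted p under 0.05. Their log2 fold changes lay between 0.49 (Kif2c) and 1.04 (Kif18a), at a median of 0.75 beside 0.01 for all genes tested, and their standard errors from 0.918 to 1.45 were larger than the fold changes in 10 of the 11. Their edgeR adjusted p ran from 0.658 to 0.892. DESeq2 called 0 of them and gave no adjusted p for 3. The libraries numbered 1 are those in which the cell division genes run against the other libraries of their label. Leaving them out therefore selects on the order that the mitotic kinesins share, and equally on its reverse. The fit over the libraries numbered 2 and 3 thus describes these libraries and does not test the kinesins. In it, all 11 were called higher in MSC-TPr, with log2 fold changes of 2.70 to 4.31 (median 3.19), while 2498 of 12122 genes (20.6%) were called higher and 2356 (19.4%) lower. With the cell division level as a covariate, the fold changes on this scale were −0.28 to 0.38 (median 0.02), and 0 were called by edgeR, with 0 at an unadjusted p under 0.05, while 555 genes (4.64%) were called higher and 893 (7.46%) lower. The covariate has the same order of libraries as the 11 mitotic kinesins and takes up the variation they share. Small fold changes were thus built into this fit, and it does not test the 11 either. The tests of single members below are those over all 6 libraries.

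Kif11 and Kif15 push the spindle poles apart, Kif11 as the main motor and Kif15 as its reserve. Kif11 measured 112, 7.32 and 8.49 CPM in Ctl MSC 1 to 3 and 5.48, 95.4 and 108 CPM in MSC-TPr 1 to 3. Its log2 fold change was 0.71 ± 1.33 (SE, adjusted p = 0.843 by edgeR). Kif15 measured 27.4, 1.23 and 1.38 CPM against 1.16, 23.6 and 28.3 CPM. It had the widest range of the 30 kinesins, with 24.4 times as much in the highest as in the lowest library, and a log2 fold change of 0.83 ± 1.45 (SE, adjusted p = 0.833 by edgeR).

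Of the kinesins of the central spindle and cytokinesis, Kif20a brings Aurora B to the midzone and was the most abundant mitotic kinesin per length, with a mean of 10.7 RPKM. It measured 98.8, 7.64 and 7.56 CPM in Ctl MSC 1 to 3 and 7.36, 76.4 and 80.8 CPM in MSC-TPr 1 to 3, and gave a log2 fold change of 0.53 ± 1.23 (SE, adjusted p = 0.877 by edgeR). Its exons overlap those of Cdc23 on the opposite strand over 1271 bases, and whether the counting used strand is not given in the sources used here, so its count is uncertain. Kif20b, which acts late in cytokinesis, measured 88.1, 11.2 and 10.5 CPM against 12.8, 87.8 and 87.1 CPM, with a log2 fold change of 0.78 ± 1.03 (SE, adjusted p = 0.776 by edgeR). Kif23 is the motor of centralspindlin, the complex that bundles midzone microtubules. It measured 59.1, 4.97 and 4.63 CPM against 5.20, 48.9 and 48.7 CPM, a log2 fold change of 0.58 ± 1.19 (SE, adjusted p = 0.858 by edgeR). Kif4, which binds chromosome arms and then sets the length of the midzone with Prc1, measured 56.9, 6.62 and 6.01 CPM against 7.47, 53.9 and 61.6 CPM. Its log2 fold change was 0.83 ± 1.08 (SE, adjusted p = 0.771 by edgeR), and its exons overlap Pdzd11 on the opposite strand over 832 bases. Kif14, a partner of citron kinase in cytokinesis, was the least abundant mitotic kinesin per length among those kept, with 17.6, 3.04 and 2.59 CPM against 2.44, 15.8 and 23.1 CPM and a log2 fold change of 0.83 ± 0.995 (SE, adjusted p = 0.746 by edgeR).

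The remaining mitotic kinesins act on chromosomes and on microtubule ends. Kif2c, which takes apart microtubules at kinetochores, measured 39.5, 2.08 and 1.99 CPM in Ctl MSC 1 to 3 and 2.82, 27.7 and 30.7 CPM in MSC-TPr 1 to 3, with a log2 fold change of 0.49 ± 1.33 (SE, adjusted p = 0.892 by edgeR). Kif18a damps the swings of chromosomes at the spindle equator. It measured 26.0, 3.52 and 4.52 CPM against 5.54, 35.8 and 28.5 CPM, a log2 fold change of 1.04 ± 0.951 (SE, adjusted p = 0.658 by edgeR). Kif18b, which acts on astral microtubules, measured 32.7, 4.06 and 4.52 CPM against 5.87, 30.3 and 25.5 CPM, with a log2 fold change of 0.58 ± 0.957 (SE, adjusted p = 0.822 by edgeR). Kif22, which pushes chromosome arms outward, measured 31.4, 5.29 and 3.75 CPM against 7.09, 30.3 and 30.5 CPM, and its log2 fold change was 0.75 ± 0.918 (SE, adjusted p = 0.753 by edgeR). In MSC-TPr 1 the last 3 had 5.54 to 7.09 CPM, above the 3.52 to 5.29 CPM of Ctl MSC 2 and 3. MSC-TPr 1 likewise lay above both in Kif2c, Kif4, Kif20b and Kif23, but below both in Kif11, Kif14, Kif15 and Kif20a.

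**Figure D3:**
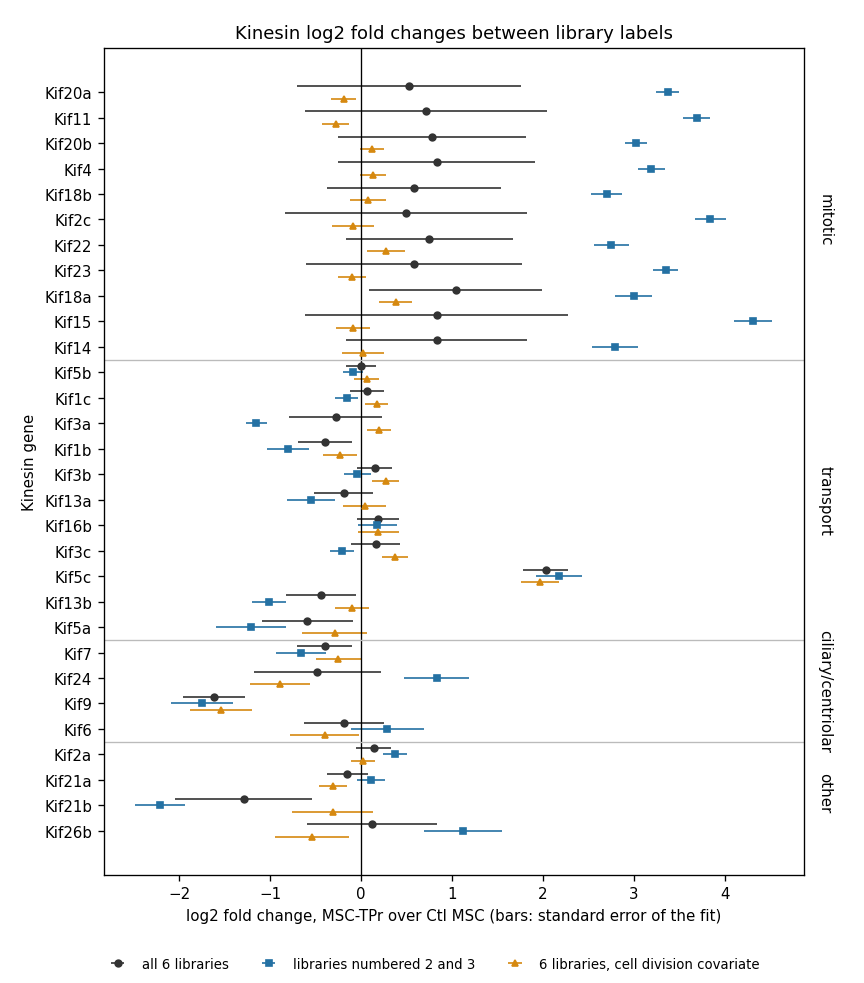
Log2 fold change of each of the 30 kinesins, MSC-TPr over Ctl MSC, with its standard error as bars, over 6 libraries (black), over the libraries numbered 2 and 3 (blue) and over 6 libraries with the cell division covariate (orange). The mitotic kinesins lie at 2.70 to 4.31 in blue and at −0.28 to 0.38 in orange, while Kif5c lies at 1.97 to 2.18 and Kif9 at −1.75 to −1.54 in all 3 fits. Kif9 was kept only through its Ctl MSC libraries, which favoured its direction.

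The proximal promoters of the mitotic kinesins were read because these genes moved together. Windows of 300 bases from RefSeq (mm10) were matched by symbol for 10 of the 11 mitotic and 8 of the 11 transport kinesins kept, and were searched for the cell cycle genes homology region (CHR, letters TTTGAA on either strand, so also TTCAAA) and the CCAAT box (letters CCAAT, or ATTGG on the other strand), elements known from promoters of late cell cycle genes. The CHR letters stood in 9 of 10 mitotic kinesins (90.0%, all but Kif18a), in 0 of 8 transport kinesins, and in 5466 of the 27025 genes with a window (20.2%). The CCAAT letters stood in 6 of 10 mitotic and 3 of 8 transport kinesins, against 41.1% of all genes. The pair of motifs together stood in 6 of 10 mitotic kinesins and in 8.97% of all genes. A match of such short letters is a description and no proof of a binding site.

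**Figure D4:**
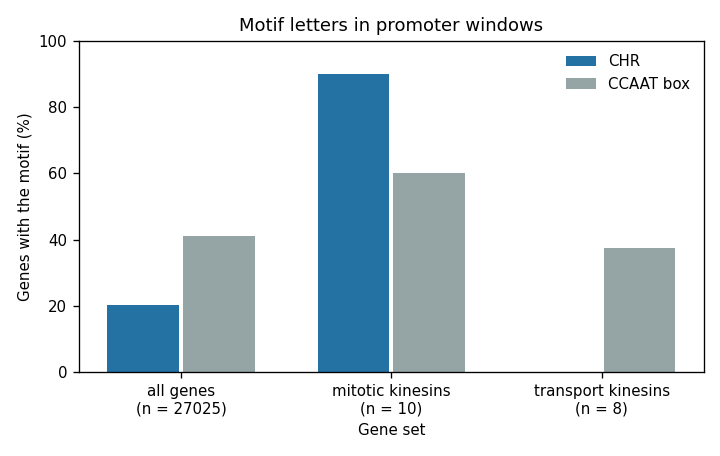
Share of genes (%) with the CHR letters (blue) or the CCAAT letters (grey) in any window from 250 bases before to 50 bases after a start, for all 27025 genes, 10 mitotic kinesins and 8 transport kinesins. The CHR letters stood in 20.2% of all genes, in 90.0% of the mitotic kinesins and in 0 of the transport kinesins.

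The windows of Kif11 at chr19:37376132-37376431, Kif20b at chr19:34922108-34922407 and Kif4 at chrX:100625815-100626114 (plus strand, mm10) are shown because they differ in how the motifs are arranged, and capitals mark the motif letters. Kif11 had the CHR letters 19 bases and the CCAAT letters 45 bases before the start, each on the minus strand. Kif20b had 2 CHR motifs in direct succession, at positions 8 and 14 with the start as 1, and no CCAAT letters. Kif4 had the CHR letters at position 20, and CCAAT letters 152 and 5 bases before the start.
Kif11: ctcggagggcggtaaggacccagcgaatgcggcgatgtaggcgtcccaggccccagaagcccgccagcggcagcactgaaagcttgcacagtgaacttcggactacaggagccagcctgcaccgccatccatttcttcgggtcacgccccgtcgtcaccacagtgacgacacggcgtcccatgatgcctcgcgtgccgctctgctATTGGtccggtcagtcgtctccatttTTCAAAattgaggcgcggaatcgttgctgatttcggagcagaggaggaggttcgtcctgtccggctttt
Kif20b: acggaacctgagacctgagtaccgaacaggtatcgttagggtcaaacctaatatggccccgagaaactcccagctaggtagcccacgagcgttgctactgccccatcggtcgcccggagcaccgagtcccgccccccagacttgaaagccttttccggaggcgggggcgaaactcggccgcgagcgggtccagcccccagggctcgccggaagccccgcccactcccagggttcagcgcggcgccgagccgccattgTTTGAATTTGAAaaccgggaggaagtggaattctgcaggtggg
Kif4: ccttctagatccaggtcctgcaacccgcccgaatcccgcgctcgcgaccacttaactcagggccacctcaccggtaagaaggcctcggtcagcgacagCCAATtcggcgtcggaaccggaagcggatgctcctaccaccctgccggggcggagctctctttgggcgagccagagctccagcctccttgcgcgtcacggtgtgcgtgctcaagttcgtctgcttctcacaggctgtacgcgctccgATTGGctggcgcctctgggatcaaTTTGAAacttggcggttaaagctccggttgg

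Partners and regulators of the mitotic kinesins showed the same order of libraries. Of 15 such genes, 15 had Ctl MSC 1 above Ctl MSC 2 and 3 and MSC-TPr 1 below MSC-TPr 2 and 3, against 32.0% of all genes tested. Over the 6 libraries edgeR called 0 of them, with 0 at an unadjusted p under 0.05 and a median log2 fold change of 0.64, and DESeq2 called 0. Over the libraries numbered 2 and 3, 15 were called higher, with a median of 2.53, beside 20.6% of all genes, and this fit selects on the same order here too. Tpx2, which brings Kif11 and Aurora A to the spindle, measured 139, 27.7 and 30.3 CPM in Ctl MSC 1 to 3 and 33.3, 168 and 168 CPM in MSC-TPr 1 to 3. Aurora A itself, from Aurka, measured 65.1, 8.97 and 9.49 CPM against 12.6, 83.5 and 64.6 CPM. Motors of the family that the symbol rule leaves out followed the same order where they act in mitosis. Cenpe, which moves chromosomes to the spindle equator, measured 94.0, 13 and 10.4 CPM against 11.3, 86.8 and 119 CPM. Kifc1, a motor toward the minus end that focuses spindle poles, measured 31.7, 4.38 and 4.47 CPM against 6.64, 41.1 and 38.8 CPM. Kifc5b is a close relative of Kifc1, and how reads were divided between them was not tested, so the count of Kifc1 is uncertain. Of these 5 motors, edgeR called 0 over the 6 libraries, with 0 at an unadjusted p under 0.05, and DESeq2 called 0.

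The 11 transport kinesins that were kept took most of the kinesin reads and, apart from Kif5c, none was called over the 6 libraries. The 3 most abundant of them per length, Kif5b at 58.4 RPKM, Kif1c at 39.9 RPKM and Kif3a at 31.7 RPKM, stood above every mitotic kinesin by mean level. Summed, all 11 transport kinesins measured 1050, 1500 and 1480 CPM in Ctl MSC 1 to 3 and 1480, 1100 and 1290 CPM in MSC-TPr 1 to 3. The log2 fold changes of the 11 had a median of 0.00, from −0.59 for Kif5a to 2.03 for Kif5c, and 1 of 11 had an unadjusted p under 0.05. In 7 of the 11 (63.6%) Ctl MSC 1 lay below Ctl MSC 2 and 3 and MSC-TPr 1 above MSC-TPr 2 and 3, the reverse of the mitotic kinesins, against 31.5% of all genes tested. Ctl MSC 1 had 0.345 times (Kif3a) to 1.22 times (Kif5c) the mean of Ctl MSC 2 and 3. These ratios lay nearer to 1 than the 6.24 to 21.0 times of the mitotic kinesins.

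Kif3a and Kif3b form kinesin-2, which with the protein from Kifap3 drives transport along cilia, and Kif3c can take the place of Kif3b. Kif3a measured 55.0, 159 and 161 CPM in Ctl MSC 1 to 3 and 165, 69.4 and 74.0 CPM in MSC-TPr 1 to 3. The library labelled MSC-TPr 1 thus lay with Ctl MSC 2 and 3, and the log2 fold change was −0.28 ± 0.507 (SE, adjusted p = 0.838 by edgeR) over the 6 libraries, −1.15 ± 0.111 (SE) over those numbered 2 and 3, and 0.20 (edgeR adjusted p = 0.32) with the covariate. Its partners moved less. Kif3b ranged from 45.7 to 68.8 CPM and Kif3c from 16.5 to 32.4 CPM. Kifap3 measured 53.0, 33.3 and 37.4 CPM against 38.5, 30.6 and 39.7 CPM, with a log2 fold change of −0.19 ± 0.227 (SE, adjusted p = 0.753 by edgeR).

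Of the kinesin-3 motors, which carry vesicles and endosomes, Kif1c measured 247, 302 and 303 CPM in Ctl MSC 1 to 3 and 351, 247 and 292 CPM in MSC-TPr 1 to 3. Its log2 fold change was 0.06 ± 0.187 (SE, adjusted p = 0.903 by edgeR), so the groups overlapped and differed by less than their spread. Kif1b, a carrier of mitochondria and of vesicle precursors, measured 210, 309 and 287 CPM against 268, 129 and 211 CPM. It gave −0.40 ± 0.298 (SE, adjusted p = 0.571 by edgeR) over the 6 libraries and −0.80 ± 0.233 (SE) over those numbered 2 and 3. Kif13b measured 12.2, 27.5 and 25 CPM against 21.8, 10.8 and 15.0 CPM, with −0.44 ± 0.389 (SE, adjusted p = 0.643 by edgeR) and −1.01 ± 0.187 (SE). Kif13a, a motor of recycling endosomes, ranged from 33.8 to 71.0 CPM, and Kif16b, a motor of early endosomes, from 26.8 to 47.1 CPM, and neither was called in any of the 3 fits.

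Over the libraries numbered 2 and 3, 4 of the 11 transport kinesins were called lower, Kif3a, Kif1b, Kif13b and Kif5a, and 1 higher, Kif5c, beside 19.4% of all genes called lower and 20.6% called higher in that fit. The 4 called lower had the reverse of the mitotic order, on which that fit selects too, so it does not test them. Kif5a measured 1.21, 2.56 and 2.48 CPM in Ctl MSC 1 to 3 and 1.94, 1.54 and 0.696 CPM in MSC-TPr 1 to 3, with −0.59 ± 0.496 (SE, adjusted p = 0.624 by edgeR) over the 6 libraries and −1.21 ± 0.39 (SE) over those numbered 2 and 3. In these 4 genes MSC-TPr 1 lay above Ctl MSC 1, and none was called over the 6 libraries or with the covariate. The transport kinesins not kept were Kif1a, with 1 to 3 reads per Ctl MSC library and 4 to 11 per MSC-TPr library, and Kif17, with 0 to 2 reads.

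The light chains and adaptors that couple kinesin-1 and other motors to cargo were measured beside them. Of 17 listed, 15 were tested, and edgeR called 0 over the 6 libraries, with 2 at an unadjusted p under 0.05, and DESeq2 called 0. Their median log2 fold change was 0.13. Klc1, the main light chain of kinesin-1, measured 70.4, 64.4 and 57.3 CPM in Ctl MSC 1 to 3 and 75.5, 74.7 and 76.4 CPM in MSC-TPr 1 to 3. Every MSC-TPr library lay above every Ctl MSC library, but the log2 fold change was only 0.24 ± 0.140 (SE, adjusted p = 0.482 by edgeR). Mapk8ip1, a scaffold that links kinesin light chains to cargo, was the other gene of the list without overlap, so 2 of 15 lay above beside 10.6% of all genes, at 12.6, 11.5 and 11.5 CPM against 27.3, 15.1 and 17.9 CPM (log2 fold change 0.76, SE 0.261, edgeR adjusted p = 0.256). With the covariate it was called higher (0.83, edgeR adjusted p = 0.0378), as 1 of the 15, beside 4.64% of all genes. The most abundant per length were Arl8b and Arl8a, small GTPases that recruit kinesins to lysosomes, with 57.9 and 51.0 RPKM on average, and each had overlapping groups.

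Cytoplasmic dynein, which moves toward the minus end, was set beside the kinesins with its cofactor dynactin. Of 21 genes, 20 were tested, and edgeR called 0 over the 6 libraries, with 2 at an unadjusted p under 0.05. DESeq2 called 1, Bicd1, beside 669 genes called in the whole series. The median log2 fold change was 0.10. The groups did not overlap in 3 genes above (Bicd1, Dync1i2 and Dync1li2) and 3 below (Dctn2, Dctn3 and Dctn4), that is 3 of 20 each way beside 10.6% and 12.1% of all genes tested. Bicd1, an adaptor that joins dynein to vesicles, measured 8.70, 8.76 and 7.12 CPM in Ctl MSC 1 to 3 and 18.6, 16.0 and 15.7 CPM in MSC-TPr 1 to 3, with a log2 fold change of 1.03 ± 0.197 (SE, adjusted p = 0.0953 by edgeR). It gave 1.0 (edgeR adjusted p = 0.00546) over the libraries numbered 2 and 3 and 1.05 (edgeR adjusted p = 0.00984) with the covariate. Over the libraries numbered 2 and 3, 4 of the 20 were called higher, beside 20.6% of all genes. With the covariate 1 of the 20 was called higher, beside 4.64%. The most abundant per length were the light chains Dynlrb1 and Dynlt3, with 111 and 63.2 RPKM on average and overlapping groups.

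Among the ciliary and centriolar kinesins, Kif9 was the other member whose groups did not overlap. Kif9 is known from the axoneme of motile cilia and sperm, and lies on the plus strand of chromosome 9 of mm10 from 110476958 to 110525179. It measured 1.27, 1.71 and 1.49 CPM in Ctl MSC 1 to 3, from 21 to 32 reads, and 0.498, 0.532 and 0.417 CPM in MSC-TPr 1 to 3, with 9 reads in each. Every MSC-TPr library lay below every Ctl MSC library, at 1.49 ± 0.220 CPM against 0.483 ± 0.059 CPM (SD, n = 3 each). Kif9 was kept only through its 3 Ctl MSC libraries, so a difference in this direction was favoured by the minimum of 10 reads. Over the 6 libraries its log2 fold change was −1.62 ± 0.339 (SE), which edgeR did not call (adjusted p = 0.119). It was −1.75 over the libraries numbered 2 and 3, −1.54 with the covariate and −1.62 by DESeq2. These 3 fits called Kif9 lower, but since it was kept only through the higher group, their calls are not read as support. Of 18 genes tested within 1 Mb of Kif9, in a window chosen like that of Kif5c, 1 lay below in every MSC-TPr library and 0 above, with a median log2 fold change of −0.045. Summed over 4 markers of motile cilia, the libraries had 1.03, 0.961 and 0.772 CPM in Ctl MSC 1 to 3 and 0.720, 0.0592 and 0.325 CPM in MSC-TPr 1 to 3, though each single marker overlapped between the groups and none passed the filter for testing. Their part in the level of Kif9 was not tested.

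The other ciliary and centriolar kinesins did not separate by label. Kif7, which acts at the tip of the cilium in Hedgehog signalling, measured 7.37 to 11.8 CPM in Ctl MSC and 4.97 to 8.40 CPM in MSC-TPr. Kif24, which holds back the growth of cilia from centrioles, measured 5.98, 1.60 and 1.49 CPM in Ctl MSC 1 to 3 and 1.05, 1.89 and 3.53 CPM in MSC-TPr 1 to 3. Kif6 was at 0.427 to 0.906 CPM, with 8 to 15 reads, and was kept through 2 libraries of each label. In Kif24 and Kif6 the libraries took the order of the mitotic kinesins. These are 2 of the 4 kept in this class, beside 32.0% of all genes tested. None of Kif7, Kif24 and Kif6 was called in any of the 3 fits. Kif19a had 0 to 4 reads and Kif27 1 to 6 reads per library, and these were not kept.

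The remaining kinesins act on microtubules rather than on cargo, or have little motor activity. Kif2a, which takes apart microtubule ends also outside mitosis, was the fourth most abundant kinesin per length at 18.4 RPKM and varied from 97.6 to 150 CPM. Its exons overlap Dimt1 on the opposite strand over 1229 bases. Kif21a and Kif21b walk along microtubules and slow their growth. Kif21a varied from 24.2 to 40.3 CPM. Kif21b, on chromosome 1 from 136131389 to 136177998, measured 11.3, 88.0 and 84.1 CPM in Ctl MSC 1 to 3 and 38.1, 13.1 and 23.8 CPM in MSC-TPr 1 to 3. Ctl MSC 1 was the lowest of the 6 libraries and MSC-TPr 1 the highest of its label, the reverse of the mitotic kinesins and the widest range among those of the 30 that are not mitotic, at 7.79 times from the lowest to the highest library. Its log2 fold change was −1.29 ± 0.756 (SE, adjusted p = 0.48 by edgeR) over the 6 libraries, −2.21 ± 0.27 (SE) over those numbered 2 and 3 and −0.31 (edgeR adjusted p = 0.67) with the covariate. The fit over the libraries numbered 2 and 3 selects on this reverse order as well. Kif26b, an atypical kinesin of Wnt5a signalling, measured 6.71, 2.78 and 2.81 CPM against 1.27, 3.49 and 8.54 CPM. Its exons overlap those of an opposite-strand gene over 909 bases. Kif2a, Kif21a and Kif26b, 3 of the 4 kept in this class, took the order of the mitotic kinesins, beside 32.0% of all genes tested. Kif12, Kif26a and Kif4-ps, a pseudogene, had 0 reads in every library, which allows up to 0.139 to 0.181 CPM.

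Markers of other cell types that the cultures could hold were low by their sums. Of the 8 neuronal markers, 3 were tested, with log2 fold changes from −2.97 to 0.18 over the 6 libraries. Of these 3, 1 lay below in every MSC-TPr library, beside 12.1% of all genes tested. It was Stmn2, at 10.6, 1.71 and 2.70 CPM in Ctl MSC 1 to 3 and 0.443, 0.651 and 0.789 CPM in MSC-TPr 1 to 3 (log2 fold change −2.97, edgeR adjusted p = 0.18, DESeq2 adjusted p = 0.00407). The 8 haematopoietic markers in the table summed to 3.32 to 14.1 CPM and took the order of the mitotic kinesins, most of it from Cd14, whereas Ptprc, which encodes CD45, was at 0 in all libraries but 1, where it had 0.0928 CPM. The 5 endothelial markers summed to 0.785 to 3.32 CPM. The part of such cells in the kinesin levels was not tested.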

How the data were processed

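Counts of polyadenylated RNA from 3 Ctl MSC and 3 MSC-TPr libraries were used (KAPA stranded kit, Illumina HiSeq2000, paired ends), grouped by the sample labels. Per the submitters' notes and the methods, the authors used CASAVA 1.8.2, Trimmomatic 0.35 and TopHat2 2.1.0, aligned to mm10 and counted with Htseq-count. These counts were deposited without normalization. Whether counting used strand is not given in the sources used here.

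In R 4.3.3 with edgeR 4.0.16, rows naming no gene were left out (79.2% to 86.2% of the reads listed fell on genes), filterByExpr kept 11974 genes, followed by TMM, the quasi-likelihood test on group alone and Benjamini-Hochberg adjustment over all genes. Standard errors were derived from the F statistic, as the fold change over its square root. Calls needed an adjusted p under 0.05 together with a log2 fold change no smaller than 0.5 in size. DESeq2 1.42.0 was an alternative, beside the replicate block, a cell division covariate, RLE and upper quartile normalization, other filters and leaving out libraries. The edgeR step was tested on simulated data. RPKM used exon lengths of GENCODE M21 (21777 symbols matched directly, 1277 by an older symbol, 366 not). Promoter windows came from RefSeq (GRCm38.p6).

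The members, gene lists and tests were chosen with earlier results of these data known. The kinesins were sorted into classes from general knowledge. Every kinesin with 10 or more reads in at least 3 libraries is named, with each library's value for those called over 6 libraries or over those numbered 2 and 3, those whose groups did not overlap, and the 3 most abundant of the mitotic and transport classes. From accompanying lists, called genes or the 2 most abundant are named, with Cenpe, Kifc1, Klc1 and Kifap3.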

Additional observations from a re-analysis of the deposited data

How the results depend on the processing

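Kif5c stayed higher in MSC-TPr under every alternative run, with log2 fold changes from 1.84 to 2.18. Its call was lost with the replicate block (2.01, edgeR adjusted p = 0.413) and in 5 of the 6 fits that left out 1 library (range of all 6: 1.84 to 2.17). The number of kinesins called was 1, against 0 with the block (2 at an unadjusted p under 0.05), 2 with the cell division covariate and with DESeq2, 18 over the libraries numbered 2 and 3, a choice that selects on the order of the cell division genes, and 0 to 1 with 1 library left out. The median log2 fold change of the mitotic kinesins, 0.75, became 3.19 over the libraries numbered 2 and 3 and 0.30 to 2.70 with 1 library left out, the highest without Ctl MSC 1. That of the transport kinesins, 0.00, moved by less than the spread between libraries. Over all genes, 51 calls became 31 with at least 10 reads in every library, 0 with the block, 1448 with the covariate, 4854 over the libraries numbered 2 and 3, 669 with DESeq2 and 0 to 108 with 1 library left out, the highest without Ctl MSC 1. Of the other 29 kinesins, 17 gained a call over the libraries numbered 2 and 3, and Kif9, which was kept only through its Ctl MSC libraries, also with the covariate and with DESeq2. By CPM without length, Kif5c was 22nd rather than 20th of 30. The replicate numbers were not taken to pair the libraries, since same-numbered libraries deviated from their group means with correlations across genes of −0.76, −0.59 and −0.60, and 0 of the 6 libraries correlated best with its own number. The block also moved the edgeR adjusted p of Kif9 to 0.681. Depth limits Kif9 and Kif6, with at most 32 reads per library, and the 8 kinesins not kept.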
